A study of Homo sapiens and Mus musculus with 213 samples.

Results

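The genes described here were 59 genes of DNA replication, the cell cycle and mitosis, among them the origin recognition and MCM genes, the replicative polymerases and clamp genes, the cyclins and cyclin-dependent kinases, and the spindle and kinetochore genes. They were the rows of the RNA-seq tables whose Ensembl identifier carries one of these symbols in GENCODE. Each of the 59 symbols matched 1 of the 58336 genes listed, and all 59 were among the 20884 genes with a mean of at least 10 normalized counts over the 9 libraries. The question was whether the RNA of genes that serve proliferation follows the level of MYC across lines with and without the MYC promoter G-quadruplex (G4), a folded structure formed by runs of guanines. All libraries were made from HEK293T cells, a human embryonic kidney line transformed with adenovirus E1 genes and carrying the SV40 large T antigen, a protein known to bind the RB proteins that hold E2F factors in check. MYC WT cells had the endogenous promoter sequence. MYC MUT cells carried point mutations in the G-runs at that site, which prevent folding. In the third line, named SWP, the MYC motif had been exchanged for a G4 motif from another gene. There were 3 libraries of each line. The edited lines were CRISPR-derived clones grown from single cells, and the labels do not say which clone was sequenced. The libraries of a line are titled as biological replicates, with no statement of how the cultures were kept apart. The p-values measure the spread between these libraries, and the edit cannot be told apart from the clone that carries it.

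Replication is prepared before S phase, when the origin recognition complex, CDC6 and CDT1 load the MCM helicase onto origins. Cyclin-dependent kinases then fire these origins through CDC45, GINS and MCM10, and polymerases held on DNA by the PCNA clamp copy both strands. Replication genes are known as targets of E2F factors, which act through E2F sites around the start of S phase, whereas many mitotic genes are known to peak later through the CHR element bound by the DREAM and B-MYB complexes. MYC is a transcription factor known to bind E-boxes and to promote entry into the cell cycle.

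The libraries held 65024354 to 98497026 reads on genes, and a member had between 1890 and 73482 reads in any library. Values are given as normalized counts, which are reads divided by 1 size factor per library. All 7 HEK293 lineage markers were present in every line, with VIM at 53004 to 58969 normalized counts by line mean, but 4 were called in MYC MUT against MYC WT. PAX2 (0.69), LHX1 (0.76) and NES (0.69) were higher and NEFM lower (-0.58), and in SWP NES was lower by 1.11 (calls as defined below). The part of these differences in the results was not tested. The leukocyte genes PTPRC and CD3E and the endothelial genes PECAM1 and CDH5 had line means of 2.24 normalized counts or less. MYC WT replicate 1 and SWP replicate 1 stood apart from the other libraries of their lines on the third principal component (36.5 and 29.1, against -23.8 to 7.79 in the other 7 libraries). MYC MUT replicate 1 was set off from its line in the same direction by less, at 7.79 against -7.76 and -6.50. The MYC WT headers carried a sequencing pool tag that the edited lines lacked, so that pool and editing cannot be told apart in comparisons with MYC WT. Headers of MYC MUT and SWP both lacked the tag, which does not show whether these 2 lines shared a pool.

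MYC itself (ENSG00000136997) had 20020, 28396 and 21580 normalized counts in the MYC WT libraries. It had 14480, 24743 and 25245 in SWP and 10693, 11176 and 12400 in MYC MUT. Every MYC MUT library lay below every library of the other lines, while MYC WT and SWP overlapped. In a limma fit on log2(normalized count + 1) over all 9 libraries, the log2 value of MYC dropped by 1.02 between MYC WT and MYC MUT (SE 0.193, adjusted p = 0.00182), to 49.0% of the MYC WT mean. Against SWP it fell by 0.87 (limma adjusted p = 0.00454). SWP differed from MYC WT by -0.15 (limma 95% interval -0.57 to 0.28, adjusted p = 0.712). Genes on the same chromosome with a start within 5 Mb of MYC, 41 in number, had a median of -0.25 between MYC MUT and MYC WT.

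Most of the members stayed near their MYC WT level in the line with less MYC. A gene was called when its limma adjusted p was below 0.05 and its log2 fold change was beyond 0.5. In MYC MUT against MYC WT, 5 of the 59 members were called, 1 higher (FEN1) and 4 lower (CDT1, POLD1, ORC1 and LIG1), beside 21.4% of all tested genes (11.3% higher and 10.1% lower). Over all genes that is 2365 higher and 2111 lower, and 2874 higher and 1600 lower when library totals are set equal. With that scaling the members called were 2 higher (FEN1 and CCNB2) and 2 lower (CDT1 and POLD1), as ORC1 and LIG1 came to -0.45 each. The median log2 fold change of the members was -0.01 and that of all tested genes was -0.00, with 29 members above 0 and 30 below. The median size of the change, whatever its direction, was 0.15 for the members and 0.27 for all tested genes. By the adjusted p alone, 17 members differed, 7 higher (18.6% of all tested genes) and 10 lower (19.8%), beside 38.4% of all tested genes in either direction. The 3 libraries of one line did not overlap those of the other for 29 members, beside 52.3% of all tested genes.

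The comparison of SWP with MYC WT had fewer calls. Of the members, 1 rose (FEN1) and 1 fell (POLE), beside 5.13% of all tested genes (2.15% higher and 2.98% lower), and the median of the members was -0.07 against -0.06 for all tested genes. The adjusted p alone was met by 4 members, 2 higher (4.49% of all tested genes) and 2 lower (5.48%), beside 9.97% in either direction, and 19 members did not overlap, beside 24.6%. Between MYC MUT and SWP, whose headers both lack the pool tag, no member rose and 2 fell (CDT1 and POLD1). In that comparison 20.6% of all tested genes were called (12.3% higher and 8.31% lower). With equal library totals RPA1 was called higher there (0.50) and POLD1 was not called (-0.48). The median of the members there was 0.05 and that of all tested genes 0.04. The adjusted p alone was met by 18 members, 10 higher (20.9% of all tested genes) and 8 lower (17.2%), beside 38.0% in either direction, and 29 members did not overlap, beside 52.3%. When MYC MUT was set against the mean of the other 2 lines, CDT1 and POLD1 were again the members called, both lower, beside 21.5% of all tested genes (12.3% higher and 9.19% lower). There 20 members met the adjusted p alone, 11 higher (22.7% of all tested genes) and 9 lower (20.6%), beside 43.3% in either direction, and 19 members did not overlap, beside 36.6%. These comparisons share libraries and are not independent of each other.

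**Figure D1:**
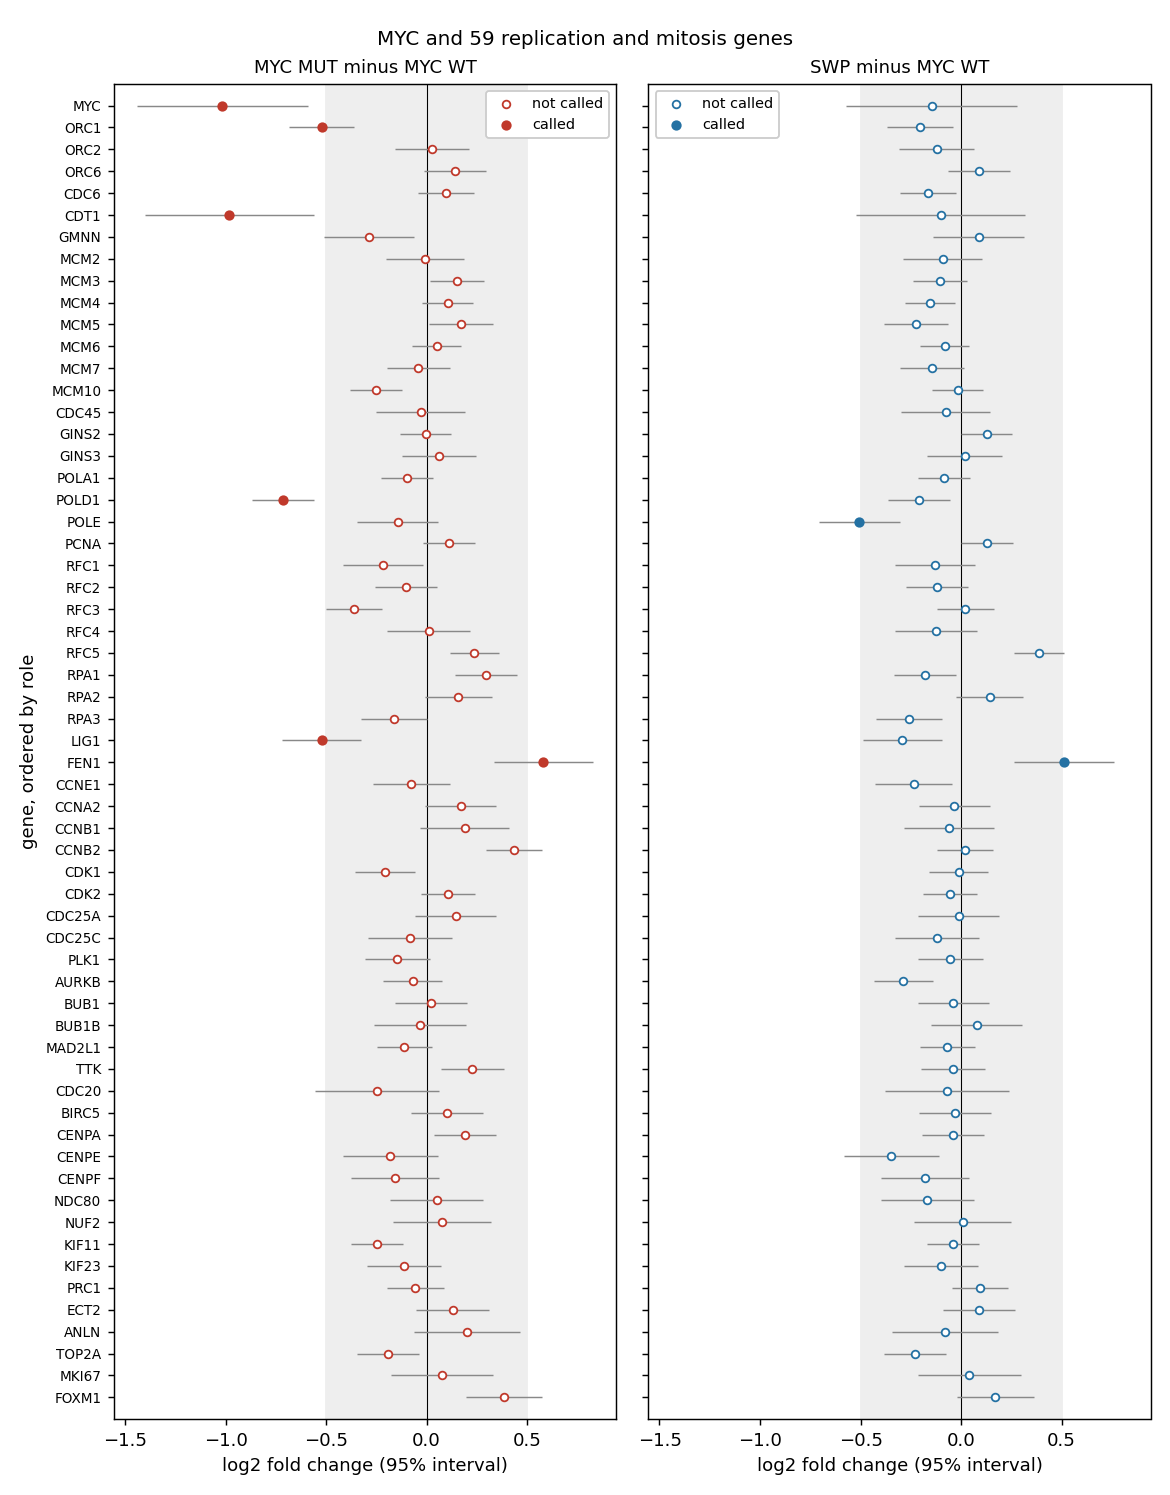
Log2 fold change (x axis) of MYC and the 59 members in MYC MUT minus MYC WT (left) and SWP minus MYC WT (right), from 3 libraries a line. Bars are 95% intervals from limma, the grey band spans -0.5 to 0.5, and filled points are called genes. On the left MYC and CDT1 lie near -1, and 49 of the 59 members have their whole interval inside the band.

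The intervals show how narrowly most members were fixed. Against MYC WT, 49 of 59 members in MYC MUT had a 95% interval wholly between -0.5 and 0.5, a share of 83.1% beside 40.4% of all tested genes. The median standard error was 0.08 for the members and 0.12 for all tested genes. Members had more RNA than most genes. Their mean level per kilobase of exon ranged from 550 to 23130 normalized counts per kb with a median of 2418, against a median of 253 over tested genes. The interval lay above the -1.02 of MYC itself for every member but CDT1, as it did for 90.1% of all tested genes.

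Among the genes of origin recognition and licensing, CDT1 and ORC1 fell in MYC MUT. CDT1 (ENSG00000167513, GRCh38 chr16:88803789-88809258) encodes the factor that brings MCM helicases to origins. It had 14069, 23624 and 20048 normalized counts in MYC WT, 13473, 18908 and 21153 in SWP, and 8812, 9203 and 10691 in MYC MUT. All 3 MYC MUT libraries were below the other 6, and the SWP libraries overlapped those of MYC WT. CDT1 fell by 0.98 on the log2 scale against MYC WT (SE 0.191, limma adjusted p = 0.00212), to 49.7% of its mean, and by 0.88 against SWP (limma adjusted p = 0.00402). With all 6 of the other libraries set against the 3 of MYC MUT, the two-sided exact permutation p was 0.0238, the smallest this design allows, which 19 of the 59 members and 36.6% of all tested genes, those without overlap, reach. SWP differed from MYC WT by -0.10, with a limma 95% interval from -0.52 to 0.32. The 93 tested genes around CDT1 had a median of -0.14 in MYC MUT against MYC WT.

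CDT1 and MYC also stood in the same order of libraries within each line. Both were lowest in replicate 1 of every line, and both were highest in replicate 2 of MYC WT and replicate 3 of SWP and MYC MUT. The same order in all 3 lines was found for 2 of the 59 members (CDT1 and POLD1, 3.39%) and for 3.83% of the other tested genes, so the members' share was near the background. As replicate 1 stood apart from its line in MYC WT and SWP, and by less in MYC MUT, these orders share a feature of the libraries. Its part was not tested. Without replicate 1 of every line, an alternative chosen after the data were seen, the same 2 members were called in MYC MUT against SWP.

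ORC1, the largest subunit of the origin recognition complex, had 5342, 6014 and 6209 normalized counts in MYC WT. In SWP it had 4803, 5194 and 5214, and in MYC MUT 3867, 4159 and 4185. The 3 lines did not overlap, with SWP between the other lines. ORC1 fell by 0.52 in MYC MUT against MYC WT (limma adjusted p = 0.000286). This value sits just past the fold threshold, and without MYC WT replicate 3 or MYC MUT replicate 1 it was -0.48 or -0.49 and was no longer called. The 73 genes around ORC1 had a median of -0.25 in the same comparison. The other licensing genes were not called. GMNN, which encodes geminin, the inhibitor of CDT1, differed by -0.29 in MYC MUT against MYC WT (limma adjusted p = 0.0464) and by -0.37 against SWP (adjusted p = 0.0144). CDC6, which works beside CDT1, differed by 0.10 and 0.26 in these comparisons. ORC2 and ORC6, further subunits of the origin complex, differed from MYC WT by 0.03 and 0.14.

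The 6 MCM2-7 helicase genes kept close to their MYC WT level. MCM2 had 39638 to 46401 normalized counts in MYC WT, 37611 to 44334 in SWP and 40255 to 47075 in MYC MUT, and these ranges overlapped. Across the 6 genes, MYC MUT differed from MYC WT by -0.04 (MCM7) to 0.17 (MCM5), with no adjusted p under 0.05. In SWP all 6 values were negative, from -0.08 to -0.23, again with no gene passing the adjusted p. Between MYC MUT and SWP all 6 were positive and 3 passed the adjusted p alone, beside 20.9% of all tested genes that were higher by it. The medians of all tested genes were themselves at -0.06 in SWP against MYC WT and 0.04 in MYC MUT against SWP. The largest of these was MCM5, at 20930, 20195 and 21774 normalized counts in SWP and 25904, 27794 and 29180 in MYC MUT, a difference of 0.40 (limma adjusted p = 0.00139). MCM3 and MCM4 differed by 0.26 each. All 3 stayed short of the fold threshold, and their direction was opposite to that of MYC.

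Of the genes that turn the loaded helicase on, MCM10 had 12305 to 12955 normalized counts in MYC WT and 10292 to 10798 in MYC MUT, without overlap. Its difference of -0.25 passed the limma adjusted p (0.00571) and not the fold threshold, and the 50 genes around it had a median of -0.36. CDC45, GINS2 and GINS3, the partners that complete the active helicase, differed from MYC WT by -0.03, -0.01 and 0.06 in MYC MUT.

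Of the polymerase genes, POLD1 was the one that fell in MYC MUT. POLD1 (ENSG00000062822, GRCh38 chr19:50384204-50418018) encodes the catalytic subunit of polymerase delta, which is known mainly for lagging-strand synthesis. It had 11765, 13592 and 13576 normalized counts in MYC WT, 10808, 11108 and 11679 in SWP, and 7755, 7884 and 8024 in MYC MUT. The MYC MUT libraries lay close together and below the other 6. POLD1 fell by 0.72 against MYC WT (SE 0.0699, limma adjusted p = 2.32e-05) and by 0.50 against SWP (limma adjusted p = 0.000223). The second value sits on the fold threshold, and without MYC MUT replicate 1 or SWP replicate 3 it was -0.49 or -0.47 and not called. Around POLD1, 263 genes had a median of -0.19 in MYC MUT against MYC WT. SWP differed from MYC WT by -0.21 (limma adjusted p = 0.0864), although every SWP library lay below every MYC WT library.

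POLE (ENSG00000177084, GRCh38 chr12:132623753-132687376), the catalytic subunit of the leading-strand polymerase epsilon, was the member that fell in SWP. It had 20504, 21457 and 18211 normalized counts in MYC WT and 14792, 12496 and 15114 in SWP. In MYC MUT it had 18514, 16777 and 19167, overlapping MYC WT. POLE fell by 0.51 in SWP against MYC WT (limma adjusted p = 0.00506), and the 48 tested genes within 5 Mb of it had a median of -0.42. The call was lost without MYC WT replicate 1 (-0.49) or 2 (-0.46) or SWP replicate 2 (-0.42). It was also lost with equal totals, edgeR or DESeq2 (-0.46 each) and with equal upper quartiles (-0.48). POLE in MYC MUT differed from MYC WT by -0.14, while the same neighbours had a median of 0.20. POLA1, the polymerase that starts each strand, differed from MYC WT by -0.10 in MYC MUT and -0.09 in SWP.

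PCNA, the sliding clamp, had 31487, 29192 and 31372 normalized counts in MYC WT and 33012, 33478 and 32833 in MYC MUT. The difference was 0.11 (limma 95% interval -0.01 to 0.24, adjusted p = 0.157). Of the RFC genes, which encode the loader of this clamp, RFC3 and RFC5 passed the adjusted p alone. RFC3 was lower in MYC MUT by 0.36, with 8735, 8801 and 8344 normalized counts against 11067, 10805 and 11359 in MYC WT (limma adjusted p = 0.00113), and the 40 genes around it had a median of -0.42. RFC5 was higher in both edited lines, by 0.24 in MYC MUT (limma adjusted p = 0.00634) and by 0.39 in SWP (limma adjusted p = 0.00123), with medians of 0.08 and 0.28 over the 106 genes around it. RFC1, RFC2 and RFC4 differed from MYC WT by -0.21 to 0.01 in MYC MUT.

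FEN1 (ENSG00000168496, GRCh38 chr11:61792911-61797238), the nuclease that trims the flaps of Okazaki fragments, rose in both edited lines. It had 15334, 11207 and 12332 normalized counts in MYC WT, 20955, 16727 and 17486 in SWP, and 19252, 19320 and 19078 in MYC MUT. Both edited lines lay above MYC WT in every library, and they overlapped each other. FEN1 rose by 0.58 in MYC MUT (SE 0.113, limma adjusted p = 0.00206) and by 0.51 in SWP (limma adjusted p = 0.0151). For FEN1, MYC MUT differed from SWP by 0.07 (limma 95% interval -0.18 to 0.32), and for MYC by -0.87. The part of MYC in the level of FEN1 was not tested. Leaving out MYC WT replicate 2 ended both calls of FEN1, with 0.41 in SWP and 0.48 in MYC MUT. The call in SWP was also lost when MYC WT replicate 3 (0.48) or SWP replicate 1 (0.41) was left out. The 227 genes around FEN1 had medians of 0.12 in MYC MUT and 0.25 in SWP. As the pool tag separates MYC WT from both edited lines, editing and pool cannot be told apart for this gene.

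LIG1 (ENSG00000105486, GRCh38 chr19:48115445-48170603), the ligase that seals those fragments, moved the other way from FEN1. It had 6417, 8270 and 7735 normalized counts in MYC WT, 5851, 6301 and 6062 in SWP, and 4918, 5416 and 5203 in MYC MUT. The 3 lines did not overlap, SWP again lying in between. LIG1 fell by 0.52 in MYC MUT against MYC WT (limma adjusted p = 0.000971), and was not called without MYC WT replicate 2 (-0.45) or 3 (-0.49) or MYC MUT replicate 1 (-0.49). Against SWP the difference was -0.23 (limma adjusted p = 0.0648), with a median of -0.14 against MYC WT over the 276 genes around it.

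RPA1, the large subunit of the single-strand binding protein, had 30455, 26053 and 30101 normalized counts in MYC WT, 26081, 25407 and 24780 in SWP and 35953, 35302 and 34880 in MYC MUT. MYC MUT lay above both other lines in every library. RPA1 differed by 0.48 between MYC MUT and SWP (limma adjusted p = 0.000323), the highest value of any member in that comparison and short of the threshold but for equal totals (0.50, called), and the 127 genes around it had a median of 0.40. RPA2 and RPA3, the smaller subunits, differed from MYC WT by 0.16 and -0.16 in MYC MUT.

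**Figure D2:**
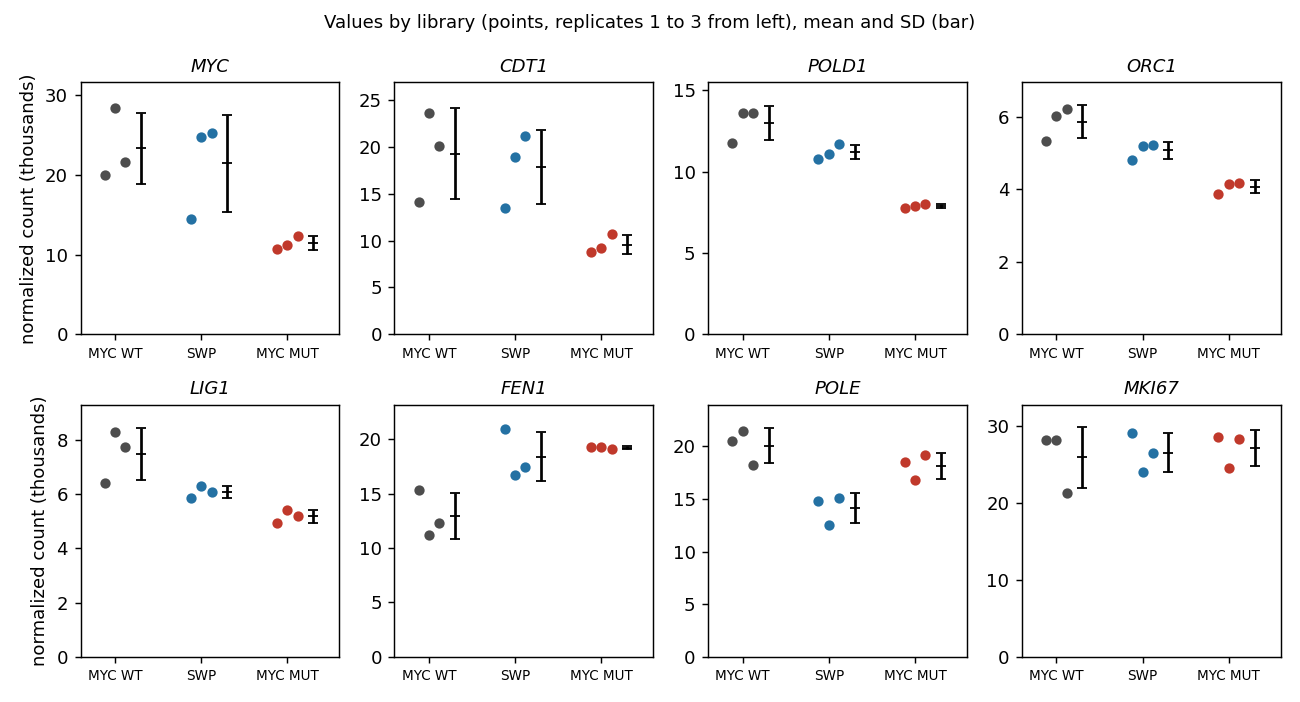
Normalized counts divided by 1000 (y axis, from 0) of MYC, the 6 members called in any comparison and MKI67 in the 3 libraries of MYC WT, SWP and MYC MUT. Points are libraries and bars are the mean and SD. CDT1 and POLD1 in MYC MUT lie below all 6 other libraries, FEN1 is higher in both edited lines, POLE is lower in SWP, and MKI67 overlaps in all lines.

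None of the 29 cell-cycle and mitosis members was called in any of the comparisons with the deposited scaling, beside 21.4% of all tested genes in MYC MUT against MYC WT. With library totals set equal, CCNB2 was called there (0.51). The 5 calls in that comparison were among the 30 replication members (16.7%), and the difference between the 2 groups of members was not tested. By the limma adjusted p alone, 4 of the 29 had more RNA in MYC MUT and 3 had less, each compared with MYC WT, beside 18.6% and 19.8% of all tested genes. By that criterion 5 were higher and 2 lower against both lines together, beside 22.7% and 20.6%. In SWP against MYC WT the criterion was met by 1 gene, AURKB, which was lower, beside 5.48%.

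Of the cyclins and kinases, CCNB2, a B-type cyclin of mitosis, had the highest value. It had 6275, 5661 and 5874 normalized counts in MYC WT, 6297, 6003 and 5752 in SWP and 8072, 8059 and 7922 in MYC MUT. All MYC MUT libraries were above the other 6, and MYC WT and SWP overlapped. The difference from MYC WT was 0.43 (limma 95% interval 0.30 to 0.57, adjusted p = 0.000343) and that from SWP 0.41 (limma adjusted p = 0.000439), neither past 0.5 (with equal totals 0.51 against MYC WT, called), and the 68 genes around it had a median of -0.00. A processed copy annotated as CCNB2P1 held reads equal to 12.1% of those of CCNB2, and differed by 0.45. Pseudogenes named after MAD2L1, CDC20 and RPA2 held larger shares, 21.85%, 17.66% and 16.01% of the member. CDK1, the kinase that B-type cyclins activate, differed by -0.21 (limma adjusted p = 0.0319), from 14965 to 16192 normalized counts in MYC WT to 12848 to 13859 in MYC MUT.

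CCNB1, CCNA2 and CCNE1 were not called. CCNB1, the other mitotic cyclin, had 23861, 19058 and 22094 normalized counts in MYC WT and 25839, 24752 and 23276 in MYC MUT, a difference of 0.19 (limma adjusted p = 0.164). CCNE1, the cyclin that opens S phase with CDK2, differed by -0.08 in MYC MUT and -0.24 in SWP. CDC25A and CDC25C, phosphatases that remove the inhibitory marks from the kinases, differed by 0.15 and -0.08 in MYC MUT.

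The mitotic kinases and checkpoint genes lay between -0.25 (CDC20) and 0.23 (TTK) in MYC MUT against MYC WT. PLK1, a kinase of mitotic entry and spindle assembly, had 19429, 16956 and 18708 normalized counts in MYC WT and 16466, 16573 and 16657 in MYC MUT, a difference of -0.15 (limma adjusted p = 0.139). BUB1, a checkpoint kinase at kinetochores, differed by 0.02 in MYC MUT and -0.04 in SWP. TTK, the kinase that starts the checkpoint signal, had 8664 to 9057 normalized counts in MYC WT and 9768 to 10806 in MYC MUT, a difference of 0.23 (limma adjusted p = 0.0272). AURKB, the kinase of the chromosomal passenger complex, was lower in SWP by 0.29 (limma adjusted p = 0.0189), beside a median of -0.22 over the 175 genes around it. MAD2L1, BUB1B and BIRC5, of the same checkpoint and passenger complexes, differed from MYC WT by -0.11, -0.03 and 0.10 in MYC MUT.

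Kinetochore and spindle genes moved as little. CENPF, a kinetochore and nuclear matrix protein, had 24502 to 32174 normalized counts in MYC WT, 23346 to 26646 in SWP and 23675 to 26629 in MYC MUT, and differed by -0.16 in MYC MUT (limma adjusted p = 0.233). CENPA, the histone variant that marks centromeres, differed by 0.19 (limma adjusted p = 0.0486). CENPE, a kinetochore motor, had the lowest value of the mitotic members in SWP, -0.35 (limma adjusted p = 0.0679). KIF11, the motor that pushes spindle poles apart, was lower in MYC MUT by 0.25 (limma adjusted p = 0.00673), and the 93 genes around it had a median of -0.20. NDC80 and NUF2, which hold microtubules at the kinetochore, and KIF23, PRC1, ECT2 and ANLN, which act in the midzone and in cytokinesis, ranged from -0.11 to 0.20. Of the exon bases of PRC1, 57.6% are shared with another annotated gene on the same strand, so that its reads may be split.

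MKI67, whose protein is the Ki-67 proliferation marker, had 28224, 28255 and 21316 normalized counts in MYC WT, 29069, 24062 and 26504 in SWP and 28615, 24527 and 28363 in MYC MUT. All lines overlapped, and MYC MUT differed from MYC WT by 0.08 (limma 95% interval -0.18 to 0.33, adjusted p = 0.639). TOP2A, the topoisomerase that untangles sister chromatids, differed by -0.19 (limma adjusted p = 0.0498). FOXM1, the transcription factor of late cell-cycle genes, was at 12686 to 14809 normalized counts in MYC WT and 16872 to 17968 in MYC MUT, without overlap. Its difference of 0.39 (limma adjusted p = 0.00471) was opposite in sign to that of MYC and short of the threshold. Exons of FOXM1 share 15.9% of their bases with ITFG2 on the other strand, and no source used here states whether counting kept strands apart.

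**Figure D3:**
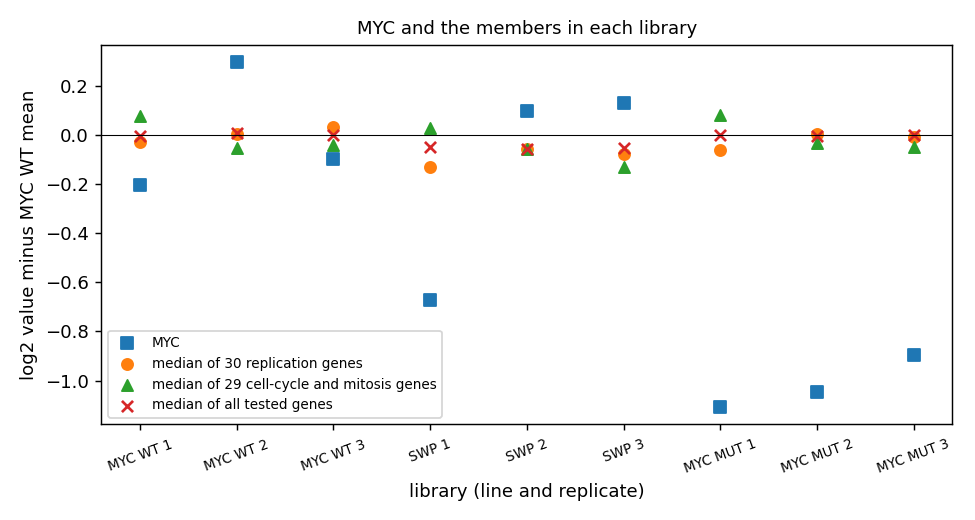
Log2 value minus the MYC WT mean (y axis) in each of the 9 libraries for MYC, for the median of the 30 replication members, for the median of the 29 cell-cycle and mitosis members and for the median of all tested genes. MYC spans -1.11 to 0.30. Both member medians lie between -0.13 and 0.08 in every library, and the median of all tested genes between -0.05 and 0.01.

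Library by library, the members' medians stayed between -0.13 and 0.08, and the median of all tested genes between -0.05 and 0.01. Scaling holds the median of many genes near 0. Its narrow range beside 1 gene therefore does not show whether the members follow MYC. Set against the MYC WT mean, MYC was at -1.11, -1.05 and -0.90 on the log2 scale in the MYC MUT libraries. The median of the replication members was -0.06, 0.01 and -0.01 in these libraries, and that of the mitotic members 0.08, -0.03 and -0.05. In SWP, MYC was at -0.67, 0.10 and 0.13, the replication median was -0.13, -0.06 and -0.08, and the mitotic median 0.03, -0.05 and -0.13. The SWP library with the lowest MYC had the lowest replication median of the 9 libraries and the highest mitotic median of its line. All MYC MUT libraries had higher replication medians than that library. In SWP, however, the median of all tested genes was itself at -0.05 in each library.

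Some differences of members ran alongside those of the genes next to them on the chromosome, and others did not. In MYC MUT against MYC WT, 9 of the 59 members lay among neighbours with a median beyond 0.2 in either direction, and 6 did in SWP. The like share of all tested genes was not computed, so these counts are not read as a trait of the members. Once the neighbours' median was subtracted, 2 members in MYC MUT remained beyond 0.5 (CDT1 at -0.84 and POLD1 at -0.53) and none in SWP, where POLE was at -0.09, FEN1 at 0.26 and RFC5 at 0.11. FEN1 in MYC MUT was at 0.46, CCNB2 at 0.44, FOXM1 at 0.40, LIG1 at -0.39 and ORC1 at -0.28, while RFC3 was at 0.06 and RPA1 at 0.07. The median size of the members' changes went from 0.15 before subtraction to 0.12 after it in MYC MUT against MYC WT. It went from 0.10 to 0.07 in SWP against MYC WT and from 0.15 to 0.10 in MYC MUT against SWP. Against both lines together it went from 0.11 to 0.12. This subtraction is a description and carries no test. It was computed for the members only. Neither the members left beyond 0.5 nor the changes in median size are therefore read as a trait of the members. The part that gene dosage has in it was not tested.

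**Figure D4:**
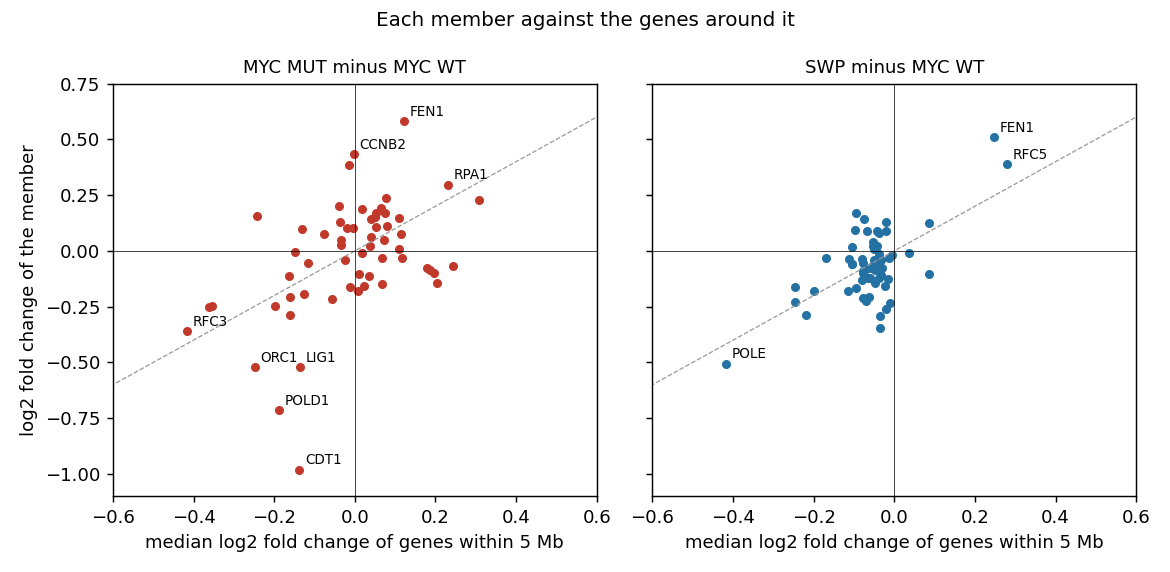
Log2 fold change of each of the 59 members (y axis) against the median log2 fold change of the tested genes within 5 Mb (x axis), for MYC MUT minus MYC WT (left) and SWP minus MYC WT (right). The dashed line marks equal values. CDT1 and POLD1 lie farthest below the line on the left, and POLE lies next to it on the right.

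The promoters of the members, taken from RefSeq (GRCh38.p14, 250 bases before to 50 after the start site), differed between the replication and the mitotic genes. An entry was found for 51 of the 59. Motifs were searched on both strands as exact letters, with E2F sites as TTTCCCGC, TTTCGCGC, TTTGCCGC or TTTGGCGC, the CHR element as TTTGAA, the NF-Y box as CCAAT, the E-box as CACGTG, and a G4 motif as 4 runs of at least 3 G with loops of 1 to 7 bases. The letters of none of these motifs contain another's, though matches can overlap, as where the G-run of an E2F site lies within a G4 motif. An E2F site was in 13 of 26 replication promoters and 3 of 25 mitotic promoters, beside 3.33% of all 27305 promoters and 5.23% of those of tested genes. A CHR was in 17 of 25 mitotic promoters and in 0 of 26 replication promoters, beside 15.4% of all promoters and 9.78% of those of tested genes. The NF-Y box was in 66.7% of the members, against 35.7% of all promoters and 36.4% of those of tested genes. The E-box, the element MYC is known to bind, was in 19.6%, against 7.43% and 9.96%. The G4 motif was in 23.5%, against 24.1% of all promoters and 34.7% of those of tested genes.

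**Figure D5:**
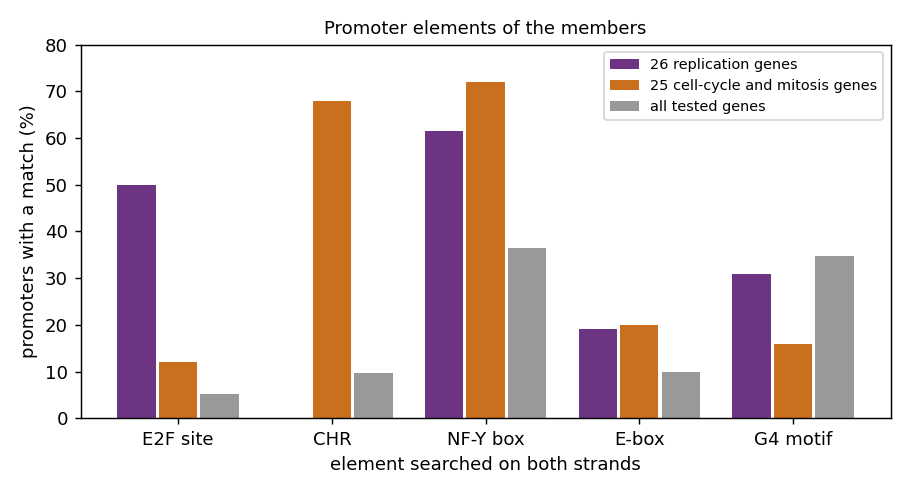
Share of promoters (y axis, %) with at least 1 match to each of 5 elements for 26 replication members, 25 cell-cycle and mitosis members and all tested genes with an entry. The E2F site is most frequent in replication promoters at 50%, and the CHR in mitotic promoters at 68%, with none among the replication promoters.

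The windows below show E2F sites in replication promoters, first of the members that fell (CDT1 and LIG1 in MYC MUT, POLE in SWP) and then of members that were not called. They are written 5′ to 3′ on the gene's strand with the site in capitals. In CDT1 (chr16:88803744-88803771, + strand), POLE (chr12:132687343-132687370, - strand) and PCNA (chr20:5126664-5126691, - strand) the site is read on the other strand. In LIG1 (chr19:48170441-48170468, - strand), CDC6 (chr17:40287876-40287903, + strand) and MCM7 (chr7:100101389-100101416, - strand) it is on the gene's strand.
CDT1: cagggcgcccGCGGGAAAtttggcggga
LIG1: cttcacccctTTTCCCGCcctcctccca
POLE: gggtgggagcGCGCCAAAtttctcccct
CDC6: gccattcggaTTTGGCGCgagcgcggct
MCM7: gggggcgacgTTTCGCGCcaatttcggt
PCNA: agcgtcagggGCGGGAAAaggcgtgcgt

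An E2F site of the searched form was found in some called members and in some that were not called. The shares of these 2 groups with a site were not compared. No E2F site was found in the promoters of ORC1, POLD1 and FEN1. The E-box letters were found in 10 member promoters, those of FEN1, RPA1, CCNB1, MCM2, MCM7, GMNN, CENPE, CENPF, PLK1 and ANLN. In MYC MUT against MYC WT these genes moved in both directions, as with FEN1 (0.58) and GMNN (-0.29). The E-box letters were absent from the promoters of CDT1, ORC1, POLD1, LIG1 and POLE. For the mitotic members, 4 windows show the CHR in capitals, from CCNB2 (chr15:59105106-59105133, + strand), PLK1 (chr16:23678849-23678876, + strand), CENPA (chr2:26786027-26786054, + strand) and MKI67 (chr10:128126436-128126463, - strand). In CCNB2, PLK1 and MKI67 the first base of the element is 29 bases before the start site, and in CENPA 18.
CCNB2: gcgacgcggtaTTTGAAtcctggaacaa
PLK1: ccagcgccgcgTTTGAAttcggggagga
CENPA: ggagcgagcgaTTTGAAcgcgagcggcg
MKI67: cttcgttttcgTTTGAAttgggcgggcg
These 4 genes are a selection from the 17 mitotic members with a CHR. Among these 4 genes, CCNB2 differed by 0.43 in MYC MUT against MYC WT, CENPA by 0.19, MKI67 by 0.08 and PLK1 by -0.15.

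Further genes of the same pathways were read from 3 lists. Of 30 other replication genes, none rose and 2 fell in MYC MUT against MYC WT, with a median of -0.04, where 21.4% of all tested genes were called. These were RECQL4, a helicase of origin firing, at -0.71 (limma adjusted p = 4.52e-05), and MTBP, a partner of the origin-firing factor treslin, at -0.58. Their neighbours had medians of -0.39 and -0.29. Of 40 other mitotic genes, none rose and 2 fell, KIF2C at -0.59 and KIF20B at -0.54, both kinesins of mitosis, with a list median of -0.01 and neighbours' medians of -0.34 and -0.22. Between MYC MUT and SWP, 2 of these 40 rose and 1 fell, where 20.6% of all tested genes were called. INCENP, the scaffold of the passenger complex, fell by 0.81 beside a median of -0.12 over its neighbours. AURKA, the kinase of spindle poles, rose by 0.58 beside a median of 0.40 over its neighbours. CENPO, a kinetochore gene named after its value was seen, rose by 0.54 beside a median of 0.09 over its neighbours.

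The 25 E2F, DREAM and B-MYB regulators included changes larger than that of any member. Of these, 3 rose and 2 fell in MYC MUT against MYC WT, beside the 21.4% of all tested genes called there. CCND1, which encodes cyclin D1, an activator of the kinases that release E2F from RB, was the highest of these at 2.08 (limma adjusted p = 7.67e-07). Its mean went from 1892 ± 325 normalized counts in MYC WT to 7949 ± 337 in MYC MUT (SD, n = 3), with 2791 ± 366 in SWP, where it also rose by 0.57 (limma adjusted p = 0.0127). The 190 genes around CCND1 had medians of 0.14 in MYC MUT and 0.29 in SWP, each against MYC WT. MYBL2, which encodes B-MYB, rose by 0.75 in MYC MUT, beside a median of 0.42 over the 73 genes around it. E2F5, a repressive E2F, fell by 1.07, beside a median of -0.48 over 43 genes. The other 2 called against MYC WT, named after their values were seen, were E2F1, an activating E2F, and LIN9, a subunit shared by the DREAM and B-MYB complexes. E2F1 rose by 0.58 beside a median of 0.37 over its neighbours. LIN9 fell by 0.55 beside a median of -0.09 over its neighbours. E2F7, another repressor, rose by 0.73 against SWP and differed from MYC WT by 0.49. Over the 34 genes around E2F7 the medians were 0.09 and -0.03 in the same order. Between MYC MUT and SWP, 4 of the 25 rose and 3 fell, beside 12.3% and 8.31% of all tested genes. Besides E2F5 and LIN9, the gene that fell there was RB1, named after its value was seen. RB1 was at -0.61 against SWP (limma adjusted p = 6.3e-05) and at -0.38 against MYC WT. The median of its neighbours was not computed. In SWP against MYC WT 1 of these 25 genes was called, CCND1, beside 5.13% of all tested genes.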

How the data were processed

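RNA-seq was analysed in 9 libraries, 3 each of MYC WT, MYC MUT and SWP. Per the study's methods, poly(A) RNA was aligned to GRCh38/hg38 with BWA (0.7.17-r2188 in the submitters' processing notes), which does not join reads across introns, and the GENCODE annotation was used. The methods also state that mapped reads were deduplicated with Picard MarkDuplicates. The effect of this step on genes with much RNA, such as the members, was not tested. The counting tool and its use of strand are not given in the sources used here. The authors deposited a signal per gene, reads divided by 1 DESeq2 size factor per library. Whole reads were recovered for 100% of values (tolerance 0.01). Genes with a mean of at least 10 were tested with limma (3.58.1, trend, Benjamini-Hochberg) on log2(value + 1), with all lines in 1 fit, so fold changes understate those of low genes. On data simulated for MYC MUT against MYC WT, limma called 150 of 200 genes changed by 1 (log2) and 6 others of 20884. Recovered reads were tested with edgeR (4.0.16) and DESeq2 (1.42.0). Symbols came from GENCODE release 44, for 57754 of 58336 identifiers. Symbols named by rule were MYC, 20 core members, every called member and the extremes of each comparison, and at most 4 called genes of each further list. Beyond the rule, E2F1, LIN9, CENPO and RB1 were added after their values were seen, and further members are named beside those of their role. The members and lists were chosen with earlier results of these data known. Same-numbered libraries deviated together in SWP with MYC WT (r = 0.102 to 0.555) and with MYC MUT (0.232 to 0.333), across genes, but not in each pair of MYC WT and MYC MUT (0.049 to 0.328), and a replicate block was fitted as an alternative.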

Additional observations from a re-analysis of the deposited data

Results flagged for a closer look

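The effects of the edits on a gene differed between the 2 edited lines, by the limma test of MYC MUT against SWP itself, for MYC (-0.87 on the log2 scale) and for 2 members, CDT1 (-0.88) and POLD1 (-0.50). Among the further genes named, it differed for RECQL4 (-0.69), INCENP (-0.81), AURKA (0.58), CCND1 (1.52), E2F5 (-1.07), MYBL2 (0.68), E2F7 (0.73), E2F1 (0.57), LIN9 (-0.55), CENPO (0.54) and RB1 (-0.61). For CCND1 both edited lines were above MYC WT, and for INCENP they lay on opposite sides of it, at -0.37 in MYC MUT and 0.44 in SWP. Groups of 3 libraries were not tested for single libraries far from the rest.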

How the results depend on the processing

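The limit of a log2 change of 0.5 decided most counts. By the adjusted p alone, 17 members passed in MYC MUT against MYC WT, 4 in SWP against MYC WT, 18 in MYC MUT against SWP and 20 in MYC MUT against both, in place of 5, 2, 2 and 2. The SWP count was 1 with equal totals, equal upper quartiles, edgeR or DESeq2 (POLE lost) and with limma without trend or the 2 lines alone (FEN1 lost). Equal totals also gained CCNB2 (0.51) and lost ORC1 and LIG1 in MYC MUT against MYC WT, and gained RPA1 (0.50) and lost POLD1 in MYC MUT against SWP. Leaving out 1 library gave 3 to 5, 0 to 2, 1 to 2 and 2 to 2 members in the same order. The 3 in MYC MUT against MYC WT came without MYC WT replicate 2 or 3 or MYC MUT replicate 1, and the 0 in SWP without MYC WT replicate 2. MYC in SWP against MYC WT changed sign, uncalled, without replicate 1 of every line (0.01, chosen after seeing the data), and by library left out ranged from -0.29 to 0.12, positive without MYC WT replicate 2 or SWP replicate 1. MYC in MYC MUT kept its call under all 22 alternatives. Of 240 alternatives for the 11 called values of members, 23 lost the call and 0 changed sign. Under the replicate block 5, 2, 2 and 2 members were called and no call of a member changed. MYC MUT against both lines cannot be fitted with 2 lines alone. Over all genes, edgeR on the recovered reads called 4554 in MYC MUT against MYC WT and DESeq2 4412, where limma called 4476. The median of the members in MYC MUT against MYC WT moved to 0.07 with equal totals, as did that of all tested genes. With 3 libraries a line, an exact permutation test cannot go below p = 0.1.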
